A study of Mus musculus with 2 samples.

Results

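Arterial endothelial cells line the vessels that bring blood into the thalamus, and 215 such cells, 153 from mouse 1 and 62 from mouse 2, were picked from 15804 cells that passed quality limits (6366 and 9438). They came from 2 untreated wildtype C57BL/6J mice aged 2 months, with 1 single-cell library per mouse made from dissociated thalamus by 10x 3' chemistry, which counts unique molecular identifiers (UMIs). A passing cell had 500 or more genes, 1000 or more UMIs and no more than 15% of them mitochondrial. An endothelial cell had Cldn5, Flt1 and Ly6c1 together at 10 or more per 10000 UMIs. Cells with over 2 UMIs of the mural genes Kcnj8, Abcc9, Atp13a5 and Pdgfrb, over 3 of Acta2, 10 or more of the oligodendrocyte genes Mog, Mag and Ermn, or over 2 of Cx3cr1 were left out. This left 1210 endothelial cells, and those with at least 3 UMIs of Gkn3, Bmx, Sema3g and Vegfc together are called arterial here. The other 995 (517 and 478) are the other endothelial cells, so the groups compared are classes of cells from the same 2 animals and not treatments. Both values of a pair below are given for mouse 1 and then mouse 2, as CPM, the gene's UMIs when all UMIs of that class and mouse are scaled to 1000000.

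Brain arteries, capillaries and veins are lined by endothelium whose expression shifts gradually along the vessel. Notch signalling through ligands such as Dll4 and Jag1 and targets such as Hey1 promotes arterial identity, while Nr2f2 promotes venous identity. Arterial endothelium rests on an elastic lamina and contacts smooth muscle, to which it sends vasoactive signals. Capillary endothelium carries much of the transport across the blood-brain barrier.

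The start regions of the 4 genes that chose the cells and of 2 genes that were higher in them, Gja4 and Gper1, are shown because the results turn on them. Each runs from 250 bases before to 30 after a RefSeq start on GRCm38.p6, 5′ to 3′ on the gene's strand, with matches to TGGGAA or its reverse complement TTCCCA, the core bound by the Notch partner RBPJ, in capitals.
Gkn3 (chr6:87388906-87389185, minus strand): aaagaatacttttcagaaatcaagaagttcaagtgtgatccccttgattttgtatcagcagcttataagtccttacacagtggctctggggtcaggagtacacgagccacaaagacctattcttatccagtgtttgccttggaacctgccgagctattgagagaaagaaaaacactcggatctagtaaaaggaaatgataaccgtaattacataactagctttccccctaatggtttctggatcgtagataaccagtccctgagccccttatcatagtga
Bmx (chrX:164258164-164258443, minus strand): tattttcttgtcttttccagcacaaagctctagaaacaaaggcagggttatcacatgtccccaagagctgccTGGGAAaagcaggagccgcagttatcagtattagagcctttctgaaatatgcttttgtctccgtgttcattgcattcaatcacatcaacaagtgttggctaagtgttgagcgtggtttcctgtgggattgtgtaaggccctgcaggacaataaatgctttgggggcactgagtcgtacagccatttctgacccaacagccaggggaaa
Sema3g (chr14:31217623-31217902, plus strand): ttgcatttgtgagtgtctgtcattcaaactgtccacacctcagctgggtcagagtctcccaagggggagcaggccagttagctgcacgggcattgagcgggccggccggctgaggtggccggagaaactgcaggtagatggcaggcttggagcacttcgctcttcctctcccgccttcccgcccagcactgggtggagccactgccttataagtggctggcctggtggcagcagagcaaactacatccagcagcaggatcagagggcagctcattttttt
Vegfc (chr8:54077282-54077561, plus strand): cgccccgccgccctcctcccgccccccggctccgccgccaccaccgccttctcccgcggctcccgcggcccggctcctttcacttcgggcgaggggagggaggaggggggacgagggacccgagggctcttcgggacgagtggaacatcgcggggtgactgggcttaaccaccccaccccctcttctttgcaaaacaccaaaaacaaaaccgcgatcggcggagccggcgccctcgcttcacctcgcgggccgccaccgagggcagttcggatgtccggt
Gja4 (chr4:127314010-127314289, minus strand): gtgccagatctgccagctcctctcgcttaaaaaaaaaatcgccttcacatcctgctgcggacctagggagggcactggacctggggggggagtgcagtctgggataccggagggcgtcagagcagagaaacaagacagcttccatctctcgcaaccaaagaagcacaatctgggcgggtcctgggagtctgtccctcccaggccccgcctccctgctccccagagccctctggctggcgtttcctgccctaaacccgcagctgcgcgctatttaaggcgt
Gper1 (chr5:139422929-139423208, plus strand): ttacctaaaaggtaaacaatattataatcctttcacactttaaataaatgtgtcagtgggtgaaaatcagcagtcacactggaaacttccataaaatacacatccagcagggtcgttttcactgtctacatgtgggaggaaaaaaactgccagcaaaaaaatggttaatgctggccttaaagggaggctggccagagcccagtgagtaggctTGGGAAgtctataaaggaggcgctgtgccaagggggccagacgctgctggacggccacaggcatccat
Bmx and Gper1 each held 1 match, and the other windows held none. Of the 18 windows listed for 13 of the genes called higher in arterial cells below, 5 (27.8%) held the RBPJ core on either strand, against 7807 (23.8%) of all 32851 windows. The SOX core ACAAT or ATTGT was in 6 (33.3%) of the 18 and 29.8% of all windows, and the palindrome GGCGCC, a SMAD-bound GC box, in 5 (27.8%) and 10.9%. Of the 37 windows of genes called higher against venous-gated cells below, 8 (21.6%) held the RBPJ core, 13 (35.1%) the SOX core and 5 (13.5%) the SMAD box. None of these motifs contains another, and a match is a description of sequence alone. Azin1, Cdk19, Col14a1, Eln, Lrrc32 and Tmem100 had no entry.

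The arterial gate genes were all far above the other endothelial cells in both mice, as the choice of cells required, so these values are a description with no test. Gkn3, a gastrokine known in mouse brain arteries, stood at 368 and 305 CPM in arterial cells and 1.75 and 4.1 CPM in other endothelial cells. Bmx, a Tec-family kinase of arterial endothelium, stood at 138 and 152 against 1.11 and 4.84 CPM, and Sema3g, a secreted semaphorin, at 175 and 244 against 17.7 and 25.7 CPM. Vegfc, a ligand of the VEGF family, had 204 and 311 against 3.5 and 8.95 CPM. Cldn5, the endothelial tight junction claudin, marked both classes and had 4287 and 2889 CPM in arterial and 5292 and 4011 CPM in other endothelial cells. The other endothelial rule genes behaved likewise, with Flt1 at 6254 and 4755 against 5810 and 5530 CPM and Ly6c1 at 4124 and 2607 against 3072 and 2151 CPM. The excluded genes were low in arterial cells by construction: Acta2 4.0 and 1.92, Pdgfrb 2.67 and 7.68, Abcc9 5.07 and 21.1, Atp13a5 4.53 and 7.68, Kcnj8 1.6 and 1.92, Mog 18.4 and 11.5, Mag 20.5 and 19.2, Ermn 20.0 and 9.6 and Cx3cr1 12.3 and 11.5 CPM.

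The label was checked by gating on 3 of the 4 arterial genes and reading the one left out. Gkn3 was then 88.8-fold and 12.7-fold higher in the cells so gated than in the other endothelial cells, Bmx 23-fold and 11.3-fold, Vegfc 21-fold and 16.3-fold, and Sema3g 4.71-fold and 4.02-fold. Each gene was thus higher in cells that it had not helped to choose, in both mice. The cells still differed among themselves: 58 and 13 had all 4 genes, while 26 and 11 had only 1 of them. Sema3g was detected in 92.2% and 87.1% of arterial cells, Vegfc in 64.7% and 62.9%, Bmx in 64.1% and 54.8%, and Gkn3 in 85 of 153 and 31 of 62 cells. Gkn3 was the most concentrated, with 61.5% and 69.8% of its arterial UMIs in 10 cells of each mouse, against 34.7% and 55.7% for Bmx, 34.7% and 55.6% for Vegfc and 22.4% and 36.2% for Sema3g. The sum of the 4 genes had a median of 7 and 6 UMIs per arterial cell and reached 254 and 36.

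Depth and signs of other cells bear on every value below. Whole libraries held 7889 and 12107 barcodes with 163418203 and 204839993 UMIs, and 36 barcodes were shared between them, 18 among passing cells and 1 among arterial cells. Arterial cells had a median of 21815 and 6504 UMIs, against 9177 and 4654.5 in other endothelial cells, so a gate on a number of UMIs takes deeper cells more readily. Mitochondrial genes made up a median of 3.29% and 2.75% of UMIs, against 4.31% and 2.99%, and Scrublet marked 3 and 1 arterial cells as doublets. The 4 arterial genes summed to 886 and 1010 CPM in arterial cells, against 2.88 and 1.5 CPM in oligodendrocyte-gated cells, which should lack them. Of the oligodendrocyte-gated cells, 0.802% and 0.232% reached 3 UMIs of these genes at median depths of 26144.5 and 15326 UMIs. Neuronal markers summed to 536 and 3909 CPM in arterial cells, against 349.6 and 2441 CPM in other endothelial cells, with 6 of 6 and 5 of 6 genes higher. Smooth muscle markers outside the rule summed to 125 and 227 CPM against 55.6 and 95.4 CPM, with 5 and 6 of 7 higher and Cnn1 at 0, and stood at 19030 and 12100 CPM in smooth muscle-gated cells. Pericyte markers outside the rule summed to 795 and 2160 CPM against 819 and 1393 CPM. Oligodendrocyte markers were lower, at 514 and 603 against 819 and 1129 CPM, and fibroblast markers summed to 3.73 and 30.7 against 9.40 and 9.32 CPM, with Lum, Col1a1 and Col3a1 at 0. Astrocyte markers summed to 233 and 420.4 against 254 and 134.9 CPM, oligodendrocyte precursor markers to 27.5 and 232 against 52.9 and 102 CPM, microglial markers to 78.4 and 38.4 against 189.7 and 67.5 CPM, and border macrophage markers to 36.0 and 5.76 against 28.2 and 26.8 CPM. Haemoglobin genes with Alas2, which mark red blood cells, summed to 53640 and 35480 against 41830 and 34020 CPM. The part of these signals in the results was not tested except where a value is given.

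Arterial cells made up 22.8% of endothelial cells in mouse 1 (153 of 670, exact 95% binomial interval 19.7 to 26.2) and 11.5% in mouse 2 (62 of 540, 8.92 to 14.5), a mean of 17.2% ± 8.03 (SD, n = 2). Of all passing cells they were 2.40% (2.04 to 2.81) and 0.657% (0.504 to 0.841). Intervals cover counting error only. With the gate set at 2 per 10000 UMIs in place of 3 UMIs, the shares were 21.0% and 20.9%, so no order of the mice was read from them. The mural limit removed 304 and 265 cells with endothelial genes, of which 103 and 35 had at least 3 UMIs of the arterial genes, and the Acta2 limit removed 22 and 13, of which 21 and 7 did. Cells carrying both arterial and mural RNA were thus left out of the arterial class by the rule, and the shares hold for what it kept.

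Most genes called between arterial and other endothelial cells were higher in arterial cells. Among the genes that rose were the elastic fibre genes Eln and Fbln5, the calcium pump genes Atp2b4 and Atp2a3, the gap junction gene Gja4 and the receptor gene Gper1, and 3 genes fell. Of 13986 genes tested outside the rule, 22 (0.157%) were called, 19 (0.136%) higher and 3 (0.0215%) lower, at an adjusted p below 0.05 and a log2 fold change of at least 1 in either direction. The test was edgeR's quasi-likelihood test on UMIs summed per mouse and class, with Benjamini-Hochberg (BH) adjustment over all genes and the mouse as a block. The spread was estimated over arterial, other endothelial, pericyte-gated (at least 5 UMIs of the mural genes) and smooth muscle-gated (at least 10 UMIs of Acta2) sums of the 2 mice. The arterial and other endothelial values did not overlap for any of the 22 genes. They were chosen by a test on these same values, so this adds no support, and its share over all genes was not counted.

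**Figure D1:**
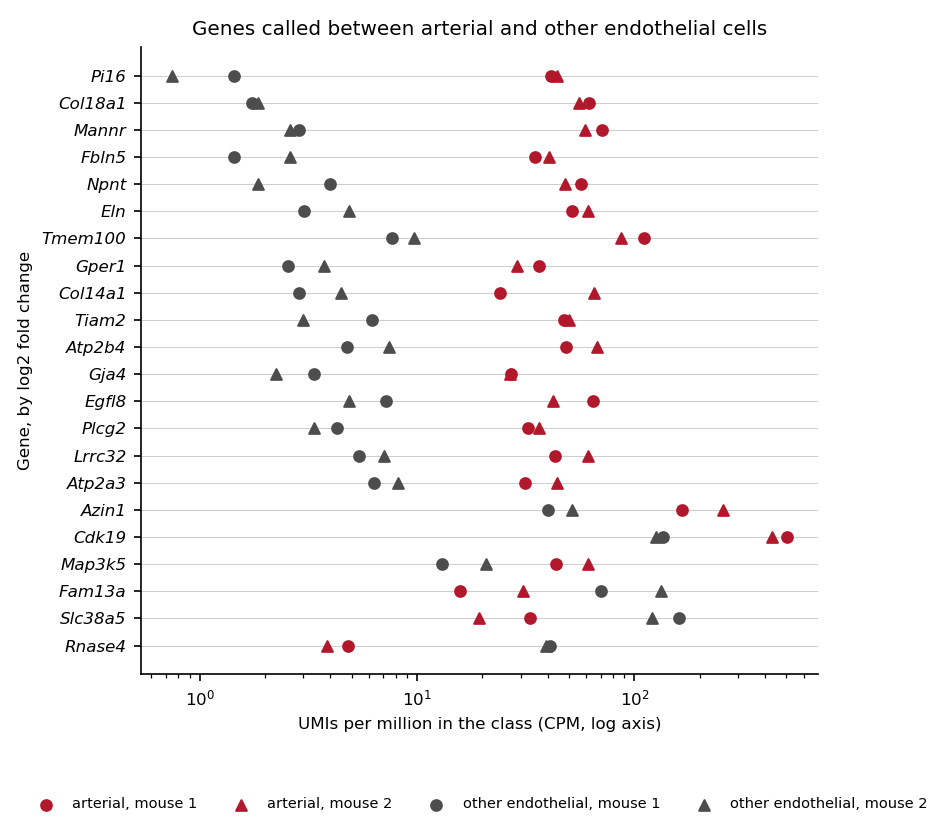
The 22 genes called between arterial (red) and other endothelial cells (grey), as CPM on a log axis, with 1 symbol per mouse (circle, mouse 1; triangle, mouse 2) and genes ordered by log2 fold change. Red symbols lie right of grey ones for the upper 19 genes and left of them for Fam13a, Slc38a5 and Rnase4, in both mice.

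Among the 19 genes called higher were 7 that encode secreted or matrix proteins, put together here after the calls were known. Eln, which encodes elastin, the core of elastic fibres, had 51.5 and 61.4 CPM in arterial cells and 3.03 and 4.84 CPM in other endothelial cells, a log2 fold change of 3.86 ± 0.27 (SE; adjusted p = 0.0117; chromosome 5, 134702593 to 134747323, GRCm38). Fbln5, a fibulin needed for elastic fibre assembly, had 34.9 and 40.3 against 1.43 and 2.61 CPM (4.27 ± 0.39; adjusted p = 0.0153). Col18a1, a basement membrane collagen from which endostatin is cut, had 61.6 and 55.7 against 1.75 and 1.86 CPM (4.99 ± 0.40; adjusted p = 0.0117; chromosome 10, 77052178 to 77166548). In each of these genes the lower arterial value was many times the higher value of the other endothelial cells. Npnt, the integrin ligand nephronectin, had 56.5 and 48 against 3.98 and 1.86 CPM (4.02 ± 0.40; adjusted p = 0.0255). Col14a1, a fibril-associated collagen, had 24 and 65.3 against 2.87 and 4.47 CPM (3.38 ± 0.36; adjusted p = 0.0295). Pi16, a secreted peptidase inhibitor, had the largest log2 fold change of the 22 called genes, 5.08 ± 0.49, from 41.3 and 44.2 against 1.43 and 0.745 CPM (adjusted p = 0.0343), where the other endothelial values rest on 9 and 2 UMIs. Egfl8, a secreted protein with epidermal growth factor-like repeats, stood at 64.3 and 42.2 against 7.17 and 4.84 CPM (3.11 ± 0.37; adjusted p = 0.0393). All 7 were higher in both mice, and Col14a1 was the one whose arterial level differed most between the mice.

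Another 6 of the genes called higher encode receptors or signalling proteins, also put together after the calls were known. Tmem100, a membrane protein induced by BMP signalling in mouse endothelium, had 111 and 86.4 CPM in arterial cells and 7.64 and 9.69 CPM in other endothelial cells (3.53 ± 0.28; adjusted p = 0.0117; chromosome 11, 90030348 to 90036508). Gper1, the G protein-coupled estrogen receptor, had 36.5 and 28.8 against 2.55 and 3.73 CPM (3.44 ± 0.27; adjusted p = 0.0117). Lrrc32, which anchors latent TGF-beta at the cell surface, had 43.2 and 61.4 against 5.42 and 7.08 CPM (adjusted p = 0.0117). The fold was close in both mice for Lrrc32, at 2.85 and 2.94 on the log2 scale, and differed more for Gper1, at 3.54 and 2.69. Tiam2, an exchange factor for the GTPase Rac, stood at 47.5 and 49.9 against 6.21 and 2.98 CPM (3.32 ± 0.38; adjusted p = 0.0352), and Plcg2, a phospholipase C, at 32.3 and 36.5 against 4.3 and 3.35 CPM (3.07 ± 0.35; adjusted p = 0.0351). Map3k5, a stress-activated kinase, had the smallest fold among the 19 genes called higher, with 43.5 and 61.4 against 13.1 and 20.9 CPM (1.61 ± 0.18; adjusted p = 0.0343).

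Gja4, which encodes a connexin of arterial gap junctions, had 27.2 and 26.9 CPM in arterial cells and 3.34 and 2.24 CPM in other endothelial cells (3.15 ± 0.32; adjusted p = 0.0255; chromosome 4, 127311421 to 127314039). The plasma membrane calcium pump Atp2b4 had 48.3 and 67.2 against 4.78 and 7.45 CPM (3.21 ± 0.20; adjusted p = 0.0117), and Atp2a3, a calcium pump of the endoplasmic reticulum, 31.5 and 44.2 against 6.37 and 8.2 CPM (2.30 ± 0.21; adjusted p = 0.0153). Both pumps thus stood higher in each mouse. Cdk19, a kinase of the Mediator complex, stood at 503 and 428 against 136 and 125 CPM (1.79 ± 0.19; adjusted p = 0.0295). Azin1, an antizyme inhibitor that favours polyamine synthesis, had 166 and 255 against 40.0 and 51.4 CPM (2.13 ± 0.17; adjusted p = 0.0117). Mannr, a long noncoding RNA, had 70.7 and 59.5 against 2.87 and 2.61 CPM (4.53 ± 0.35; adjusted p = 0.0351; chromosome 3, 29891014 to 29924191) and was at 0 in both mural classes of both mice.

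Several of these genes are shared with the mural cells that surround arteries, and that was visible here. Of the 19 genes called higher, 8 (Atp2a3, Atp2b4, Col18a1, Eln, Gja4, Gper1, Lrrc32 and Map3k5) had a higher level in smooth muscle-gated than in arterial cells of both mice, for example Gja4 at 257 and 189 and Atp2b4 at 254 and 291 CPM. In pericyte-gated cells 4 did, with Gper1 at 209 and 166 CPM. Another 9 (Azin1, Cdk19, Egfl8, Fbln5, Mannr, Npnt, Pi16, Plcg2 and Tmem100) were higher in arterial cells than in both mural classes in both mice. When endothelial cells with over 2 UMIs of the smooth muscle genes Tagln, Myh11 and Myl9 were removed, 24 genes were called and all 22 were among them.

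Among genes that fell, Rnase4, a secreted ribonuclease, had 4.8 and 3.84 CPM in arterial cells and 40.8 and 39.1 CPM in other endothelial cells (−3.12 ± 0.34; adjusted p = 0.0308). Its arterial values rest on 18 and 2 UMIs, and its locus overlaps Ang on the same strand, so reads of the pair may be divided between them. Slc38a5, a glutamine transporter known from veins and capillaries, had 33.1 and 19.2 against 160.1 and 120.0 CPM (−2.44 ± 0.22; adjusted p = 0.0295; chromosome X, 8271133 to 8280179). Fam13a stood at 15.7 and 30.7 against 70.5 and 132 CPM (−2.21 ± 0.25; adjusted p = 0.0343). All 3 were lower in both mice. A further 11 of the 22 called genes overlap a listed gene on the other strand, among them Gper1, Col18a1 and Tiam2, and whether counting used strand is not stated in the labels or file headers.

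**Figure D2:**
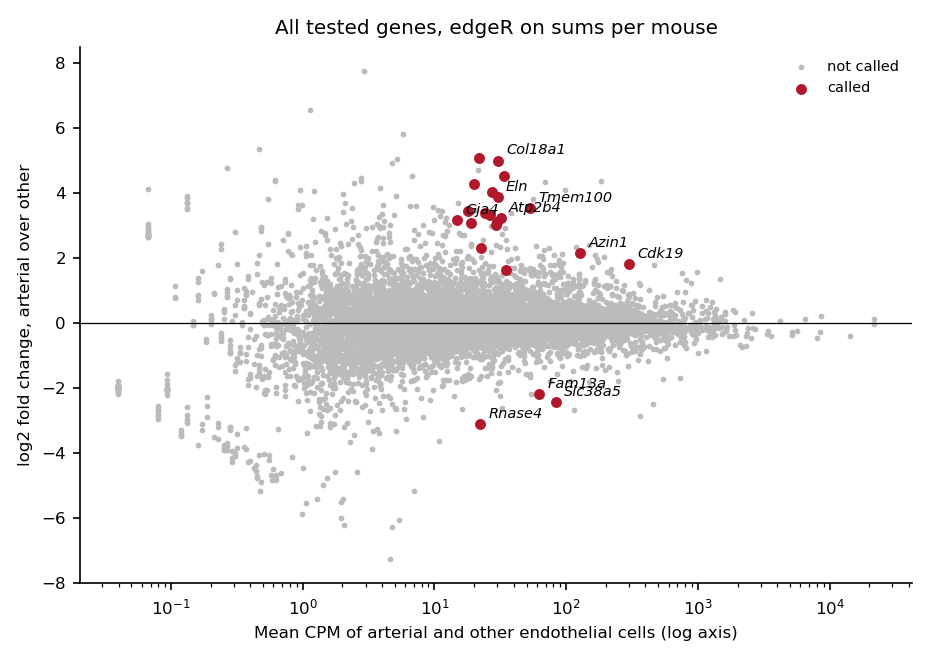
Mean CPM of arterial and other endothelial cells (log axis) against the log2 fold change of arterial over other, for all 13986 tested genes (grey) and the 22 called (red). Many genes of low level lie as far from 0 as the called ones, which sit mostly between 10 and 100 CPM.

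The number of calls moved with the model: it was 4 without the mouse as a block and 113 with DESeq2, and of 21 alternatives each of the 22 genes was called in 10 to 20 (median 16), with Map3k5 the lowest at 10 and Tiam2 at 11, while keeping its direction under all that were run. This fit had 3 residual degrees of freedom and a common biological coefficient of variation of 0.241. A wider set of genes, taken without a test, was at least 2-fold apart in each mouse: 313 genes (2.24%) higher and 183 (1.31%) lower. Removing endothelial cells with over 10 per 10000 UMIs of glial and neuronal genes raised the number of calls to 81, with 21 of the 22 among them, and a mitochondrial limit of 5% reduced it to 5.

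Most genes of a list of known arterial genes lay on the higher side. The list was drawn from common knowledge of the arterial programme. Like the other lists, it was chosen with earlier results of these data known, so its counts are a description and no independent support. Of its 30 tested members, 4 were called higher and 0 lower, Gja4, Tmem100, Eln and Fbln5, against 0.136% of all genes called higher. At least 2-fold higher in each mouse were 16, against 2.24% of all genes. The median log2 fold change of the list was 1.60, against −0.05 over all genes. Hey1, a Notch target transcription factor, had 120.0 and 92.2 CPM in arterial and 28.8 and 25 CPM in other endothelial cells, with a log2 difference of 1.96 ± 0.33 that was not called (adjusted p = 0.129). Efnb2, the ephrin of arterial endothelium, stood at 104 and 125 against 37.1 and 44 CPM (1.46 ± 0.45; adjusted p = 0.596). Both were over 2-fold apart in each mouse, and these and the uncalled genes below were chosen after their values were seen. Mgp, an inhibitor of calcification in the vessel wall, had 394 and 311 against 10.0 and 23.9 CPM (4.35 ± 0.55; adjusted p = 0.102), and it was also high in pericyte-gated (809 and 482 CPM) and smooth muscle-gated cells (567 and 348 CPM). The matrix gene Fbln2 had 94.1 and 117 against 7.33 and 6.71 CPM (3.80 ± 0.61; adjusted p = 0.162) and was low in smooth muscle-gated cells (0 and 3.21 CPM). Tm4sf1, a tetraspanin-like membrane protein, had 1192 and 1079 against 398 and 366 CPM (1.52 ± 0.20; adjusted p = 0.0624). Arterial values lay above the other endothelial values in both mice for each of these, although none passed the threshold. S100a6 (85.1 and 36.5 against 11.3 and 4.47 CPM), Clu (62.7 and 138 against 24.8 and 12.3 CPM), the phosphatase Alpl (265 and 288 against 61.2 and 76 CPM) and Amd1 of polyamine synthesis (177 and 108 against 53 and 42.9 CPM) were likewise at least 2-fold apart in each mouse and not called.

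**Figure D3:**
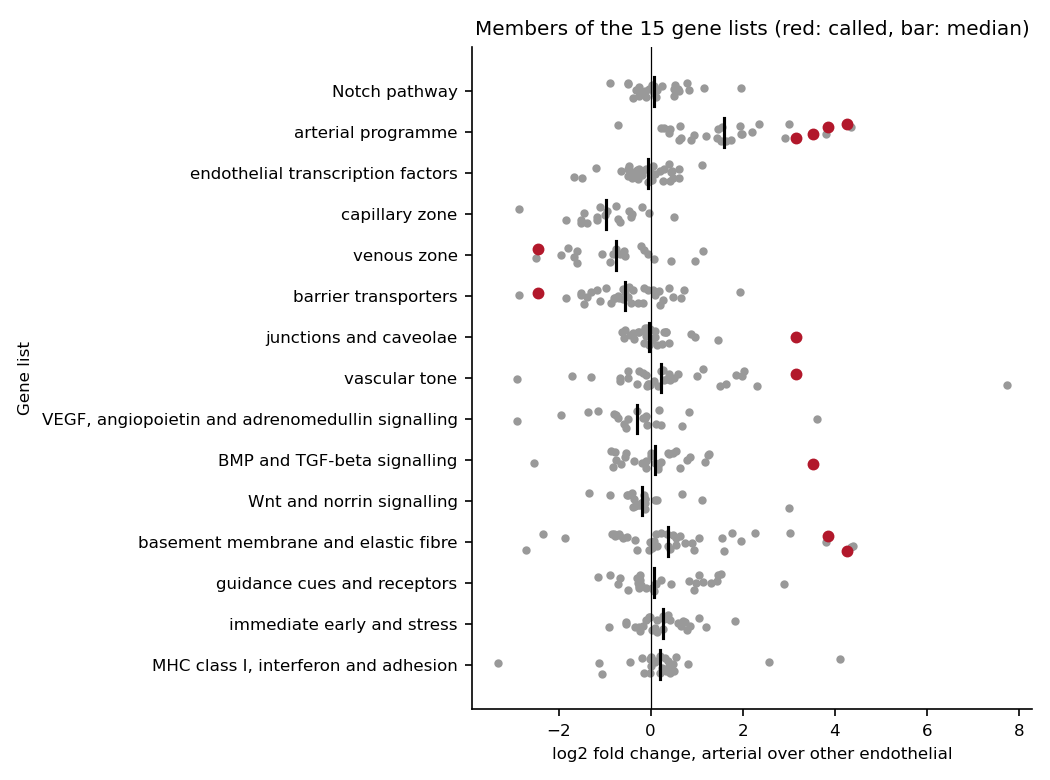
Log2 fold change of arterial over other endothelial cells for every tested member of the 15 gene lists (grey, not called; red, called), with a black bar at each list's median. The arterial list has its median at 1.60 and the capillary list at −0.97.

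The medians of the capillary, venous and barrier transport lists lay on the lower side. Of 20 tested capillary genes 0 were called in either direction, 14 (70.0%) had an unadjusted p below 0.05, against 868 (6.21%) of all genes tested, and 4 were at least 2-fold lower in each mouse, with a median log2 fold change of −0.97. Of 21 venous genes 1, Slc38a5, was called lower and 8 were at least 2-fold lower in each mouse (median −0.75). Of 37 barrier transport genes the same gene was called, 5 were 2-fold lower and 1, Alpl, 2-fold higher (median −0.56). The lists overlap: these 5 were Slc38a5 and the 4 capillary genes that were 2-fold lower, Car4, Slc16a1, Tfrc and Slc22a8. Over all genes, 1.31% were 2-fold lower in each mouse. Not all venous markers were lower: of 8, 1 was higher in arterial cells in mouse 1 and 2 in mouse 2. Vwf stood at 112.5 and 80.6 against 72.3 and 66.3 CPM, and Ackr1 at 10.9 and 11.5 against 14.5 and 7.45 CPM. Vcam1 was within 2-fold in each mouse, at 94.1 and 9.6 against 107 and 14.2 CPM. Car4, the carbonic anhydrase on the luminal face of capillaries, had 147 and 44.2 CPM in arterial and 759.8 and 512 CPM in other endothelial cells (−2.86 ± 0.35; adjusted p = 0.0624). The monocarboxylate transporter Slc16a1 had 79.7 and 49.9 against 275 and 187 CPM (−1.83 ± 0.31; adjusted p = 0.145), and the transferrin receptor Tfrc 143 and 67.2 against 355 and 228 CPM (−1.46 ± 0.47; adjusted p = 0.649). These differences were large in each mouse but not called. Other capillary markers were within 2-fold of the other endothelial cells in each mouse: Spock2, a proteoglycan, stood at 2415 and 2091 against 2491 and 2627 CPM, the lipid transporter Mfsd2a at 249 and 97.9 against 279 and 155 CPM, the chemokine Cxcl12 at 1882 and 1162 against 2205 and 1660 CPM and Rgcc at 212 and 344 against 308 and 604 CPM. The organic anion transporter Slc22a8 had 181 and 84.5 against 369.8 and 332 CPM, and the thymosin Tmsb10 195 and 78.7 against 1100 and 444 CPM, neither of them called. Glucose transporter Slc2a1 (1860 and 1461 against 1590 and 1489 CPM) and the efflux pump Abcb1a (1310 and 1054 against 1475 and 1539 CPM) stayed within 2-fold in each mouse.

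The general endothelial markers outside the rule were present in the arterial cells within 2-fold of their levels in the other endothelial cells of each mouse. Pecam1 stood at 695 and 559 against 628 and 631 CPM, Cdh5 at 498 and 447 against 410.3 and 435 CPM, Tek at 610.1 and 392 against 562 and 459 CPM, Tie1 at 207 and 154 against 196 and 171 CPM, Emcn at 582 and 601 against 728 and 669 CPM and Erg at 297 and 221 against 305 and 267 CPM. The organic anion transporter Slco1a4 had 2127 and 1569 against 2630 and 2992 CPM. None of these 7 was called.

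In the Notch pathway, 0 of 26 tested genes were called and 6 (23.1%) had an unadjusted p below 0.05, against 6.21% of all genes, while Hey1 and the ligand Jag2 (258 and 232 against 116 and 98 CPM) were at least 2-fold higher in each mouse, and the list's median was 0.07. The ligand Dll4 had 70.9 and 102 against 37.1 and 58.5 CPM, Jag1 65.1 and 69.1 against 37 and 38.4 CPM, and the receptors Notch1 303 and 225 against 181 and 176 CPM and Notch4 101 and 76.8 against 58.1 and 65.2 CPM. All 4 were higher in arterial cells of both mice by less than 2-fold and were not called. Endothelial transcription factors had 0 calls among 35 tested, 6 with an unadjusted p below 0.05, and a median of −0.05. The arterial factor Sox17 stood at 383 and 244 against 235 and 162 CPM, and the venous factor Nr2f2 at 23.5 and 30.7 against 77.1 and 81.2 CPM (−1.66 ± 0.26; adjusted p = 0.122).

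Genes that act on vascular tone had 1 call, Gja4, among 35 tested, against 0.157% of all genes called. In each mouse 6 were at least 2-fold higher and 2 lower (median 0.23), against 2.24% and 1.31% of all genes. Edn1, the precursor of the vasoconstrictor endothelin, stood at 328 and 346 CPM in arterial and 109 and 99.1 CPM in other endothelial cells (1.65 ± 0.29; adjusted p = 0.152). Alox12, a lipoxygenase, had 47.2 and 59.5 against 12.1 and 7.83 CPM (2.32 ± 0.35; adjusted p = 0.102), and Nos3, endothelial nitric oxide synthase, 176 and 211 against 159 and 147 CPM. Edn1 and Alox12 were higher in both mice without passing the threshold, and Nos3 was within 2-fold. Ace, which makes angiotensin II, was low in both classes, at 15.2 and 17.3 against 4.62 and 2.98 CPM.

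BMP and TGF-beta genes had 1 call, Tmem100, among 29 tested (median 0.09), against 0.157% of all genes called. The ligand Tgfb2 stood at 317 and 361 against 130.3 and 140.5 CPM (1.28 ± 0.22; adjusted p = 0.137) and the inhibitory Smad6 at 122 and 99.8 against 42.5 and 46.2 CPM (1.24 ± 0.44; adjusted p = 0.679). The receptors Acvrl1 (389 and 280.3 against 327 and 254 CPM) and Eng (821 and 599 against 663 and 571 CPM) were within 2-fold. Basement membrane and elastic fibre genes had 2 calls, Eln and Fbln5, among 41 (median 0.39). In each mouse 6 were at least 2-fold higher and 3 lower, against 2.24% and 1.31% of all genes. Timp3, an inhibitor of matrix proteases, had 1193 and 1757 against 418 and 549 CPM (1.55 ± 0.35; adjusted p = 0.342) and Lama3, a laminin chain, 80.8 and 40.3 against 17.8 and 13.8 CPM, while the main basement membrane collagen Col4a1 had 541 and 444 against 472 and 416 CPM. Timp3 and Lama3 were thus at least 2-fold higher in each mouse, and Col4a1 was within 2-fold.

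Guidance genes had 0 calls among 29 tested and 7 (24.1%) with an unadjusted p below 0.05, again against 6.21% of all genes (median 0.08). The netrin receptor Unc5b stood at 125 and 123 against 42.7 and 48.5 CPM (1.44 ± 0.24; adjusted p = 0.137) and netrin Ntn4 at 36 and 32.6 against 10.2 and 14.2 CPM. Slit3 had 6.4 and 113 against 2.23 and 51.1 CPM, so it differed far more between the mice than between the classes. VEGF, angiopoietin and adrenomedullin genes had 0 calls among 21 tested, 6 with an unadjusted p below 0.05, and a median of −0.29; the receptor Kdr had 336 and 252 against 526 and 439 CPM. Wnt and norrin genes had 0 calls among 22, 2 with an unadjusted p below 0.05 (median −0.19), and the Wnt target Apcdd1 had 229.6 and 121 against 478 and 361 CPM. Junction and caveola genes had 1 call, Gja4, among 30 (median −0.02), against 0.157% of all genes called.

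Of the 29 immediate early and stress genes tested, 22 (75.9%) differed more between the mice than between the classes, against 29.7% of all tested genes. The gap between mice was taken in both classes and that between classes in both mice, as log2 of CPM plus 1. Of the 22, 20 were higher in mouse 2, against 2598 of the 4154 such genes among all tested. Fos stood at 48.3 and 2275 CPM in arterial and 27.4 and 1477 CPM in other endothelial cells, and Egr1 at 34.1 and 626 against 9.71 and 519.9 CPM, so the gap between the libraries exceeded that between the classes. Of the list's genes 0 were called and 3 (10.3%) had an unadjusted p below 0.05 (median 0.27), against 6.21% of all genes. MHC class I, interferon and adhesion genes had 0 calls among 27 and 3 (11.1%) with an unadjusted p below 0.05 (median 0.21). H2-K1 stood at 379 and 313 against 303 and 237 CPM.

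Arterial cells were also set against cells gated on venous genes, among them Slc38a5, which is also known from capillaries. Venous-gated cells were the 221 other endothelial cells (140 and 81) with at least 3 UMIs of Slc38a5, Nr2f2, Ackr1 and Lcn2 together. The other 774 (377 and 397) are the remaining endothelial cells. The capillary marker Car4 stood at 953 and 660 CPM in venous-gated and 578 and 459 CPM in remaining cells. Slc16a1 had 349 and 214 against 205 and 178 CPM, and Tfrc 451 and 241 against 264.5 and 223 CPM. Mfsd2a, Rgcc and Cxcl12 were lower in venous-gated cells of both mice, and Spock2 was higher in mouse 1 alone. The part of capillary cells in the venous-gated class was not tested. Of 13994 genes tested outside both gates, 47 (0.336%) were called, 43 (0.307%) higher and 4 (0.0286%) lower in arterial cells, by the same edgeR test on 10 sums. At least 2-fold apart in each mouse were 445 (3.18%) higher and 167 (1.19%) lower genes. This comparison shares the arterial cells with the one above, so its calls are not a second sample, and the fits differ in form, so the 47 and 22 calls give no order. With endothelial sums only and the mouse as a block, 162 genes were called against venous-gated and 396 against other endothelial cells. Arterial cells had a median of 21815 and 6504 UMIs, against 16149.5 and 5246 in venous-gated cells, a smaller gap than to the other endothelial cells as a whole. Red cell genes summed to 53640 and 35480 CPM in arterial cells, against 36320 and 411.4 CPM in venous-gated cells.

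The arterial list had 9 of 30 members called higher, against 0.307% of all genes, and its median was 2.15 against 0.01 over all genes. Hey1 had 120.0 and 92.2 CPM in arterial cells and 11.2 and 4.29 CPM in venous-gated cells, a log2 fold change of 3.60 ± 0.47 (adjusted p = 0.0259). Unc5b had 125 and 123 against 18.1 and 21.4 CPM (2.70 ± 0.29; adjusted p = 0.0124), and Mgp 394 and 311 against 7.24 and 18.6 CPM (5.04 ± 0.61; adjusted p = 0.0272). All were higher in both mice, and the remaining endothelial cells lay between for Hey1 (45.4 and 32.3 CPM) and Unc5b (65.7 and 58 CPM). Tm4sf1 had 1192 and 1079 against 323 and 204 CPM (2.17 ± 0.24; adjusted p = 0.0141), and Glul, glutamine synthetase, 1291 and 829 against 434 and 230.0 CPM (1.74 ± 0.24; adjusted p = 0.0259). Arl15, a small GTPase, had 1345 and 1137 against 382 and 381 CPM (1.75 ± 0.23; adjusted p = 0.0259). Gja4, Tmem100 and Eln were called here too, with log2 fold changes of 4.62 ± 0.47, 6.51 ± 0.50 and 3.39 ± 0.31, while Fbln5 was not (4.47 ± 1.05; adjusted p = 0.206).

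**Figure D4:**
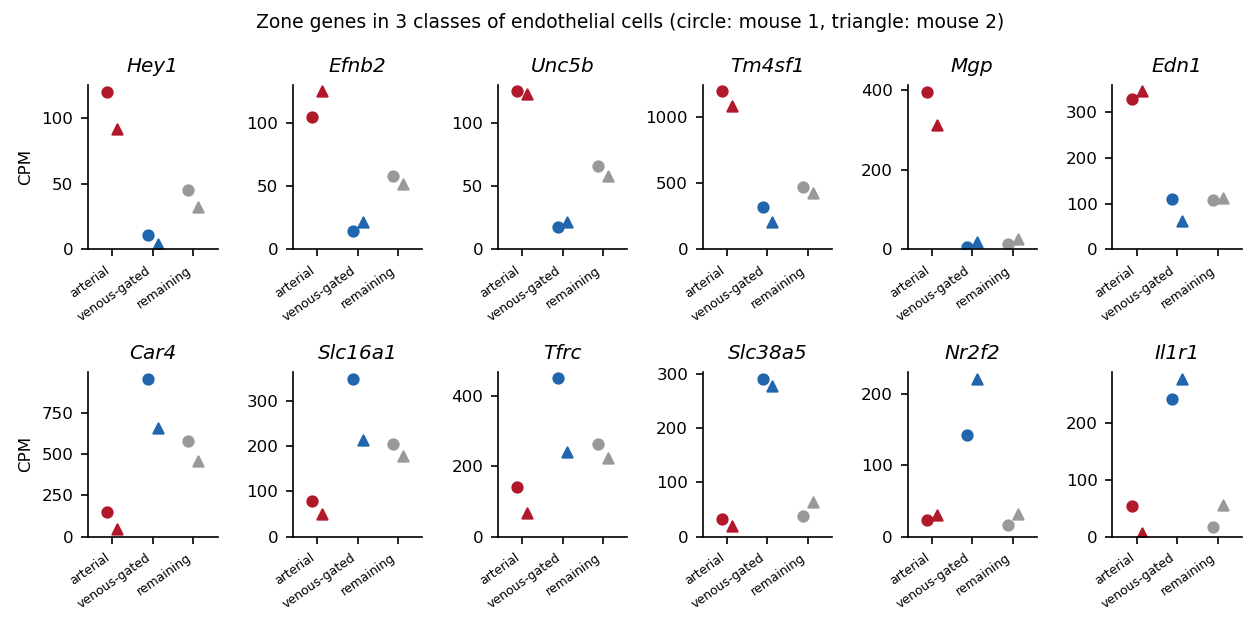
CPM of 12 genes in arterial (red), venous-gated (blue) and remaining endothelial cells (grey), with a circle for mouse 1 and a triangle for mouse 2, each panel starting at 0. Hey1, Efnb2, Unc5b and Tm4sf1 run down from arterial through remaining to venous-gated cells, and Slc38a5 and Nr2f2, which gated the venous cells, are high in those.

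Other genes called higher against venous-gated cells included signalling and cell cycle regulators. Tgfb2 had 317 and 361 CPM in arterial and 103 and 70.0 CPM in venous-gated cells (1.99 ± 0.28; adjusted p = 0.0272), and Ntn4 36 and 32.6 against 7.24 and 8.57 CPM (2.20 ± 0.31; adjusted p = 0.0272). Ccnd2, a D-type cyclin, had 253 and 142 against 38.8 and 15.7 CPM (2.83 ± 0.39; adjusted p = 0.0272), and Cdkn1c, an inhibitor of cyclin-dependent kinases, 343 and 196 against 91.5 and 57.1 CPM (1.88 ± 0.27; adjusted p = 0.0304). A cyclin and a cell cycle inhibitor were thus both higher. Msx1, a homeobox factor, had 43.2 and 46.1 against 5.59 and 2.86 CPM (3.29 ± 0.44; adjusted p = 0.0259), and Tec, a kinase of the family of Bmx, 81.6 and 82.5 against 9.87 and 7.14 CPM (3.25 ± 0.42; adjusted p = 0.0259). S100a4, a calcium-binding protein, had 31.2 and 51.8 CPM in arterial cells and no UMI in venous-gated cells of either mouse (adjusted p = 0.0373). These genes, like the uncalled ones above, were chosen after their values were seen.

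The genes lower in arterial than in venous-gated cells were Rnase4, Sdk1, Car4 and Fam13a. Car4 had 147 and 44.2 CPM in arterial and 953 and 660.0 CPM in venous-gated cells (−3.10 ± 0.37; adjusted p = 0.0203), and Sdk1, an adhesion molecule of the sidekick family, 10.7 and 38.4 against 143 and 227 CPM (−3.18 ± 0.34; adjusted p = 0.0124). Rnase4 stood at 4.8 and 3.84 against 59.9 and 62.9 CPM (−3.63 ± 0.35; adjusted p = 0.00905) and Fam13a at 15.7 and 30.7 against 104 and 181 CPM (−2.61 ± 0.34; adjusted p = 0.0259). All 4 were lower in both mice. Of 17 tested venous genes outside the gate 0 were called, and 5 (29.4%) had an unadjusted p below 0.05, against 1002 (7.16%) of all genes in this comparison. At least 2-fold lower in each mouse were 7 (median −1.16), against 1.19% of all genes. Il1r1, the interleukin receptor of venous endothelium, stood at 53.9 and 5.76 against 244 and 277 CPM (−2.72 ± 0.85; adjusted p = 0.465), and the protease Ctsc at 30.9 and 19.2 against 93.1 and 136 CPM. The adhesion molecules Vcam1 (94.1 and 9.6 against 217 and 32.9 CPM) and Icam1 (22.9 and 5.76 against 81.9 and 32.9 CPM) were lower in both mice too, and Vwf, von Willebrand factor, was within 2-fold (112 and 80.6 against 125 and 110.0 CPM). None of these 5 was called. The gate genes themselves stood in arterial cells at 33.1 and 19.2 CPM for Slc38a5, 23.5 and 30.7 CPM for Nr2f2, 10.9 and 11.5 CPM for Ackr1 and 14.9 and 0 CPM for Lcn2.

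Within the arterial class, most called genes were ordered by the strength of the gate. Arterial cells of each mouse were divided into 3 groups of near equal size by their UMIs of the 4 gate genes per 10000. The 19 genes called higher summed to 552 CPM in the lowest, 1219 in the middle and 2859 in the highest group of mouse 1, and to 767, 1827 and 3268 CPM in mouse 2. The sum of the 3 genes called lower ran the other way, at 94.7, 34.6 and 19.4 CPM in mouse 1 and 75.9, 44.0 and 9.26 CPM in mouse 2. Taken singly, 17 of the 19 had a higher level in each next group in both mice. Of the 3 genes called lower, 1, Slc38a5, had a lower level in each next group in both mice. The exceptions among the 19, both in mouse 2, were Map3k5, at 94.0, 44.0 and 0 CPM, and Mannr, at 32.5, 102.7 and 74.1 CPM. These genes were called on the same cells, so the order is a description and carries no test. Tmem100 stood at 34.0 CPM in the lowest and 226 CPM in the highest group of mouse 1, and at 36.2 and 157 CPM in mouse 2. Gja4 stood at 4.67 and 65.4 CPM in mouse 1 and at 10.8 and 83.3 CPM in mouse 2, the last 2 resting on 3 and 9 UMIs. Car4 stood at 268 CPM in the lowest and 30.7 CPM in the highest group of mouse 1, and at 54.2 CPM and no UMI in mouse 2.

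**Figure D5:**
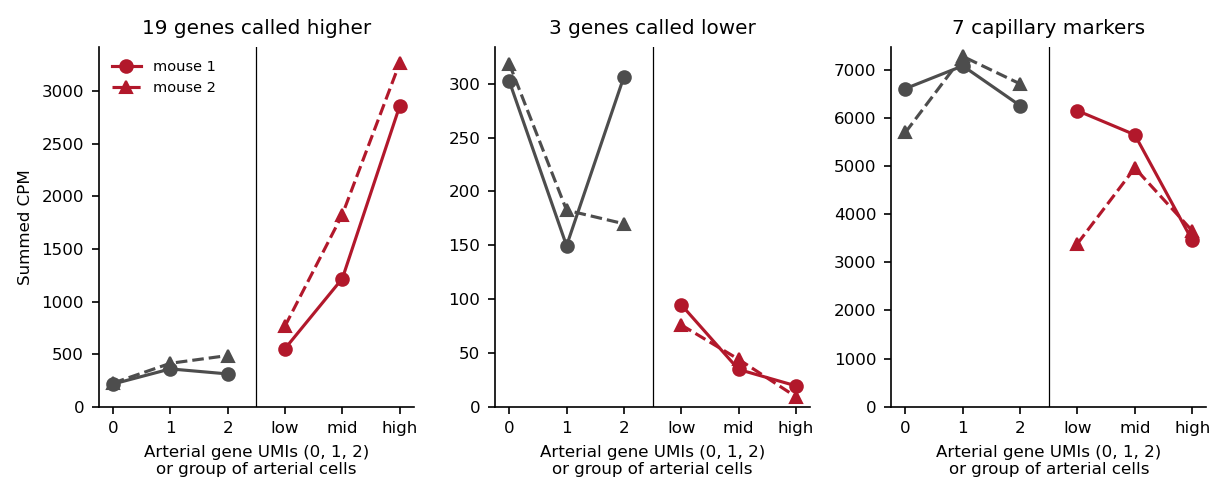
Summed CPM of the 19 genes called higher, the 3 called lower and 7 capillary markers in other endothelial cells with 0, 1 or 2 UMIs of the arterial gate genes (grey) and in the 3 groups of arterial cells (red), with solid lines for mouse 1 and dashed lines for mouse 2. The sum of the 19 genes climbs over the 3 arterial groups in both mice and is lower at 2 than at 1 UMI in mouse 1, and capillary markers are lowest in the highest group of mouse 1 and in the lowest group of mouse 2.

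For the 19 genes called higher, cells just inside and outside the limit of 3 gate UMIs differed less than the lowest and highest groups. Cells with exactly 3 gate UMIs (27 and 13) had 481 and 739 CPM of the 19 genes, cells with exactly 2 (30 and 26) had 311.5 and 486 CPM, cells with exactly 1 (91 and 65) had 359 and 413 CPM, and cells with none (396 and 387) had 215.5 and 224.5 CPM. The 3 genes called lower summed to 105 and 66.4 CPM at exactly 3 gate UMIs and to 306 and 170 CPM at exactly 2. That gap in CPM was larger than between their lowest and highest groups, in both mice. Venous markers summed to 164 and 174 CPM at exactly 3 and to 1730 and 609 CPM at exactly 2. The 7 capillary markers summed to 5704 and 3588 CPM at exactly 3 and to 6256 and 6708 CPM at exactly 2. Over the 3 groups they summed to 6151, 5651 and 3460 CPM in mouse 1, and to 3388, 4960 and 3657 CPM in mouse 2. The lowest group had the most neuronal markers in both mice. They summed to 1141 CPM against 143 and 123.5 CPM in mouse 1, and to 6932 CPM against 462 and 518 CPM in mouse 2. Its cells were also the deepest, with a median of 25027 UMIs against 17321 and 21715 in mouse 1, and 8195 against 6244 and 5563 in mouse 2. The part of depth and of neuronal RNA in the order of the groups and in the capillary sum was not tested.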

How the data were processed

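The authors deposited unnormalised counts of UMIs for each gene and barcode, and the file headers name Cell Ranger 7.1.0. Per the submitters' processing notes the build was mm10, and they list Seurat 5 without saying what it did. Annotation version, intron use and strand use: not given in the sources used here. Gene coordinates (GRCm38) came from GENCODE vM21, which holds 32158 of the 32285 identifiers. Start regions are from RefSeq (GRCm38.p6).

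The members, gene lists, gates and tests were chosen with earlier results of these data known. Cells were kept and gated as the results state, with Python 3.11.15 and scanpy 1.11.5. Pericyte-gated cells had at least 5 UMIs of the 4 mural genes and at most 3 of Acta2, smooth muscle-gated cells at least 10 of Acta2, both with the endothelial genes below 10 per 10000 UMIs. Oligodendrocyte-gated cells had at least 10 UMIs of Mog, Mag and Ermn and likewise few endothelial genes. Scrublet doublets (181 and 262 of the passing cells, 2.84% and 2.78%) were kept and removed as an alternative. Passing cells had a median of 18336 and 14974 UMIs.

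UMI counts were summed per mouse and class and tested by edgeR 4.0.16 under R 4.3.3 with limma 3.58.1, using filterByExpr, TMM factors and robust quasi-likelihood dispersions, class and mouse as terms and Benjamini-Hochberg adjustment over all tested genes. Mouse was a block since both animals gave cells to each class. The fit against other endothelial cells used 8 sums, and that against venous-gated cells 10 sums with 4 residual degrees of freedom and a biological coefficient of variation of 0.269. The block takes out the general gap between the 2 mice. All p-values thus rest on how far differences between classes varied between the mice, pooled over all classes of the fit, mural ones included. The 16 genes of the rule were fitted but not counted, and neither were the venous gate genes in the second comparison. Cells were chosen by the same counts that were tested, which makes p-values somewhat too small. A fold in each mouse is a difference of log2 CPM with a prior count of 2. The code was checked on simulated counts with 1 common spread and no gap between the mice, unlike these data. Of genes changed by a log2 fold of 1.5, 51.6% were called against other endothelial and 30.8% against venous-gated cells. At a log2 fold of 3, 95.6% and 89.0% were. Named genes were called members of the 15 lists (up to 4 each) and the 12 called genes with the largest fold in each direction, at 50 CPM or more on the higher side. Called genes below that, and uncalled genes, were named after their values were seen. Alternatives covered scaling, DESeq2 1.42.0, filters, the block, the gate, depth, doublets and removal of cells with RNA of other types.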

Additional observations from a re-analysis of the deposited data

How the results depend on the processing

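Against other endothelial cells, the 22 calls became 113 with DESeq2, 76 with no filter on low counts, 396 with endothelial sums only and the replicate block, 10 without Sema3g in the gate, 34 without Vegfc, 5 at a mitochondrial limit of 5%, 60 with only cells of 5000 to 30000 UMIs, and 81 without cells rich in glial and neuronal genes. Without the replicate block 4 were called, and 0 with endothelial sums only and no replicate block, where edgeR gave 362 genes at an unadjusted p below 0.05. Against venous-gated cells, the 47 calls became 176 with DESeq2, 88 with no filter, 162 with endothelial sums only and the replicate block, 82 with at least 5 gate UMIs, 76 without Vegfc in the gate, 125 within the depth range and 178 without cells rich in glial and neuronal genes. Here 7 were called without the replicate block and 0 with endothelial sums only and no replicate block. That last fit held 12522 genes, gate genes included, and edgeR gave 503 at an unadjusted p below 0.05. The cause of these shifts was not tested.

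Each of the 22 genes lost its call under at least 1 alternative, and all 22 kept their direction under every alternative run, as did 45 of the 47. In each mouse alone, where no test is possible, 22 of 22 and 47 of 47 genes kept direction and a 2-fold difference. These genes were called on the sums of the same 2 mice, so this follows largely from their choice and is no separate check. The arterial share of endothelial cells ranged from 11.3% to 23.6% (mean of 2 mice). Removing cells rich in haemoglobin (22 and 54 calls), or reading the oligodendrocyte limit per 10000 UMIs (23 and 50), were alternatives chosen after seeing the data.

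With 62 arterial cells and 520872 UMIs in mouse 2, a gene at 2 CPM there is 1 UMI, so low values carry large counting error.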
